A study of Homo sapiens with 4 samples.

Results

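The 10 genes described here are HMOX1, HMOX2, BLVRA, BLVRB, FTL, FTH1, TFRC, SLC40A1, ALAS1 and NCOA4, which together make, break down or store heme and its iron. They were followed in 4 Affymetrix arrays of LNCaP, a prostate cancer cell line that responds to androgen. On 2 arrays (PC-3 exosome replicates 1 and 2) the cells had been given exosomes, small released vesicles, of PC-3, an androgen-independent prostate cancer line, and on 2 (PBS replicates 1 and 2) the buffer PBS. The sample labels give the control's agent as none and name PBS only in the treatment protocol. Dose, exposure time and passage are not used here. Both groups were grown in RPMI-1640 with fetal bovine serum. The members are all probe sets annotated to exactly 1 gene, that gene being among the 10, and there were 26 of these among 44988 single-gene probe sets. They covered 9 of the 10 genes, out of 18132 genes in all. FTH1 was named by no probe set in the annotation used here. The genes were chosen with the measured PC-3 exosome against PBS difference of HMOX1 already known, so their differences, intervals and calls are given as a description and are not independent evidence that these genes differ.

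Heme oxygenase opens the heme ring and releases iron, carbon monoxide and biliverdin, which biliverdin reductase turns into bilirubin. HMOX1 encodes the inducible heme oxygenase, whose gene is repressed by BACH1 and activated by NRF2 (NFE2L2), and HMOX2 the constitutive form. Freed iron is held in ferritin, a shell of light (FTL) and heavy (FTH1) chains, and leaves the cell through ferroportin (SLC40A1). The transferrin receptor (TFRC) takes iron up, ALAS1 catalyses the first step of heme synthesis, and NCOA4 carries ferritin to the lysosome for degradation. Iron regulatory proteins bind a hairpin, the iron responsive element, in the ferritin, ferroportin and transferrin receptor mRNAs, so much of the control of these genes lies in translation and mRNA decay, which an array of mRNA levels sees only in part.

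Promoter windows from RefSeq (GRCh38.p14) were found for 8 of the 10 genes, in 10 windows. HMOX1 and FTH1 had no entry. The 250 bases before the start of FTL (chr19:48965059-48965308, + strand), BLVRB (chr19:40465746-40465995, - strand) and TFRC (chr3:196082091-196082340, - strand) are shown because these are the members besides HMOX1 with probe sets furthest above PBS. Capitals mark the GC box (GGGCGG) and the hypoxia response element core (ACGTG), each on either strand.
FTL: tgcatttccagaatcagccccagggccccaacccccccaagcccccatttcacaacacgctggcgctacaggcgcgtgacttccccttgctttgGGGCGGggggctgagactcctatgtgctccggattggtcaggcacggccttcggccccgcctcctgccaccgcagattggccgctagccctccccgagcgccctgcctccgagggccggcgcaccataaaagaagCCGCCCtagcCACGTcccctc
BLVRB: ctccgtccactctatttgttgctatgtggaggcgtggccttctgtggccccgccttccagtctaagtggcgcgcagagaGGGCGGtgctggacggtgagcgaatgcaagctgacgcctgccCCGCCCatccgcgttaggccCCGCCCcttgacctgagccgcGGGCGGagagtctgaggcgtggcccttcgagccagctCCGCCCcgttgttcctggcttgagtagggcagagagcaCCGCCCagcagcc
TFRC: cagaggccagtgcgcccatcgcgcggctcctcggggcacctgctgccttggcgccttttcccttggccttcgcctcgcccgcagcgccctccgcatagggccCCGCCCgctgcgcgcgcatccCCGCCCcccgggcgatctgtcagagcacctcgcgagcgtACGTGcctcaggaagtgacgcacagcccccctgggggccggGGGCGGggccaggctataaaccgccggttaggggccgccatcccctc
BLVRB held 6 GC boxes, TFRC 3 and FTL 2, and the GC box occurred in 42.6% of all 35116 windows over the same length. It lay in 8 of the 10 member windows, with ALAS1, BLVRA, HMOX2, NCOA4 and SLC40A1 also carrying it. ACGTG occurred in 18.5% of all windows and in those of FTL, HMOX2 and TFRC. In TFRC it lay 88 to 84 bases before the start, and in FTL 11 to 7 bases before it. The core of the antioxidant response element bound by NRF2 and BACH1 with small MAF proteins, TGACNNNGC on either strand, occurred in 0 of the 10 member windows and in 10.9% of all windows. The AP-1 site TGANTCA was found in the window of NCOA4 alone among the 10 (6.57% of all windows), and the E-box CACGTG in that of HMOX2 alone (6.34%), where it holds 2 of that gene's 3 ACGTG matches. The CCAAT box, searched as CCAAT on either strand, lay in the windows of ALAS1, BLVRA, FTL and HMOX2, and in 32% of all windows. NRF1's core GCATGCGC was in 0 of the 10 member windows and 2.63% of all. These matches describe the letters of each window only.

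The first transcribed bases of FTL carry the loop of its iron responsive element. Bases 21 to 50 of the transcript, in the 5′ untranslated region (chr19:48965329-48965358, + strand, GRCh38.p14), are shown with the CAGTGT loop, bases 39 to 44, in capitals, since it is the site through which iron acts on ferritin translation.
FTL: gtctgtctcttgcttcaaCAGTGTttggac

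The arrays were alike in level. The median intensity was 110.8 to 112.4 per array, and the geometric mean of the 23 background control probe sets was 47.2 to 48.6. The 3′ to 5′ signal ratio, a gauge of RNA integrity, varied within each group for actin. It was 6.82 and 5.39 after exosomes and 5.74 and 7.17 after PBS. For GAPDH the ratio was 1.32 to 1.35 per array. The labels' extraction protocol names brain tissue, whereas the sample labels say LNCaP. All 6 measured LNCaP markers (KLK3, KLK2, TMPRSS2, HOXB13, STEAP2 and TRPM8) lay above the array median, at 679.6 to 14526, with sums of 37110 to 37249 after PBS and 37143 and 38060 after exosomes. The 9 measured brain markers summed to 1569 and 1646 after PBS and to 1714 and 1725 after exosomes. Of these 9, 4 lay above the array median and 0 were called. The brightest, MBP, read 867 and 868 after exosomes and 764 on both PBS arrays. The 8 macrophage markers, from a cell type rich in HMOX1, summed to 717 and 741 after PBS and 732 and 715 after exosomes, with 0 called by limma and 0 past an unadjusted p of 0.05 in either direction. The 3 measured erythroid markers summed to 631 and 821 after PBS and 681 and 609.9 after exosomes. The 10 PC-3 markers summed to 1284 and 1290 after PBS and 1442 and 1444 after exosomes, and 1 of them, LCN2, was called higher. Without LCN2 the other 9 summed to 1112 and 1105 after PBS and 1098 and 1087 after exosomes. In bulk RNA of this kind, more cells of a type and more RNA per cell cannot be told apart.

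Across the 26 probe sets, 23 had a higher mean after exosomes on the log2 scale and 3 a lower mean. The median difference was 0.20, against -0.01 over all single-gene probe sets. On 20 of the 26 both exosome arrays lay above both PBS arrays, which was so for 17.2% of all probe sets, and on 1 both lay below, which was so for 20.5% of all. The fit over all single-gene probe sets (limma, Benjamini-Hochberg adjusted p under 0.05) called 0.238% of them higher and 0.0200% lower. Among the members it called 3 higher, all of HMOX1, and 0 lower, with 17 and 0 past an unadjusted p of 0.05. The share of all probe sets past that p was not taken, and 8 of the 26 are FTL probe sets that overlap in what they measure. In the fit with the brightest probe set standing for each gene, 0.700% of 18132 genes were called higher and 0.188% lower. Of the 9 member genes 3 were called higher there (HMOX1, BLVRB and FTL) and 0 lower. Since the choice of genes used this contrast, nothing is read from these counts. Levels of different probe sets depend on their probes and are not compared with each other.

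**Figure D1:**
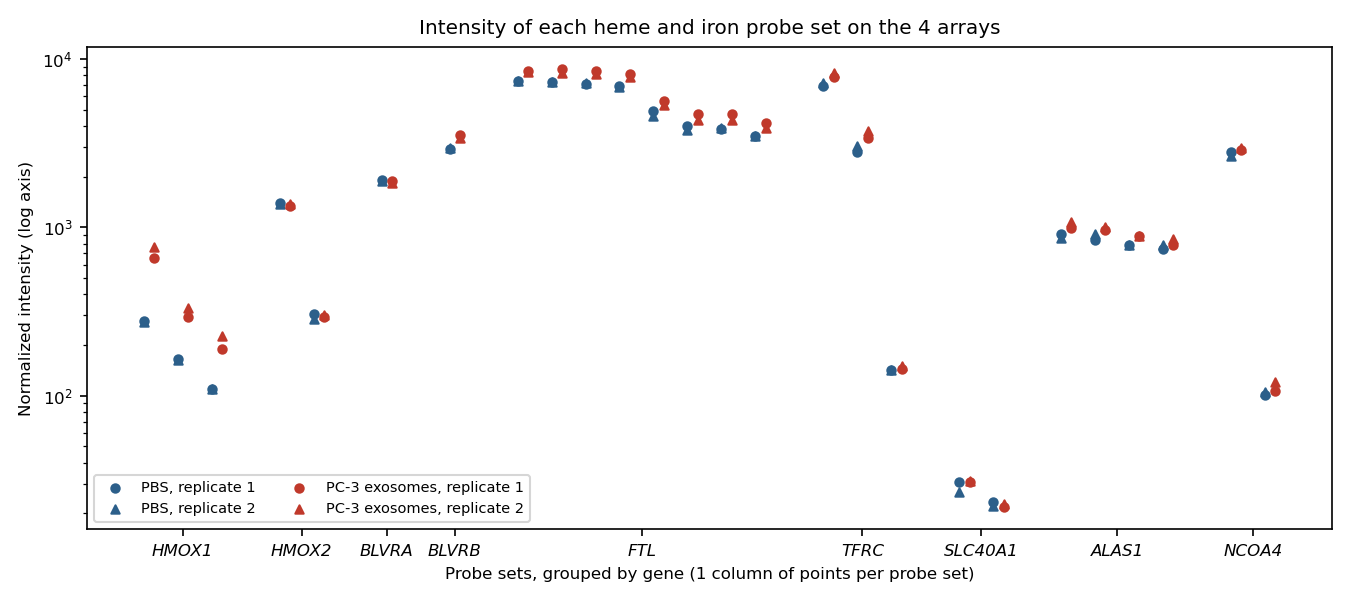
Normalized intensity (log axis) of the 26 probe sets of the 9 measured genes, 1 column of points per probe set, with PBS in blue, PC-3 exosomes in red, replicate 1 as circles and replicate 2 as triangles. The gap between red and blue is widest for HMOX1, small and in 1 direction for the 8 FTL probe sets, and closed for HMOX2 and BLVRA.

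HMOX1, which encodes the inducible heme oxygenase, had the largest difference of the 9 genes. Its brightest probe set (11716939_a_at) read 659 and 762 after PC-3 exosomes and 278 and 275 after PBS. Both exosome values stood more than 2-fold above both PBS values, with means of 710.4 ± 72.5 and 277 ± 2.08 (SD, n = 2 each). The log2 difference was 1.35 (SE 0.080, 95% interval 1.17 to 1.54), a 2.56-fold higher level. The second probe set (11753446_x_at) read 294 and 331 after exosomes and 166 and 164 after PBS, a log2 difference of 0.92 (95% interval 0.73 to 1.11). The third (11753445_a_at) read 189 and 226 after exosomes, and both PBS arrays were deposited with the same value, 109.6. Its log2 difference was 0.91 (95% interval 0.67 to 1.14). On all 3 probe sets the groups did not overlap, and exosome replicate 2 was the brighter exosome array. The dimmer pair gave 1.89-fold and 1.88-fold, and the 3 were designed on 2 sequence records, so that pair is not independent. Identical values on both PBS arrays occurred at 222 probe sets of the whole table. With each array left out in turn the log2 difference of the brightest probe set ranged from 1.25 to 1.46, and the mean over the 3 probe sets gave 1.06. The other pair ranged from 0.83 to 1.00 (11753446_x_at) and from 0.78 to 1.04 (11753445_a_at). In the probe-set fit the calls of HMOX1 were not stable to leaving out an array. The gene-level call of HMOX1 was kept with any array left out. Such fits leave a lone array in a group, and neither result is independent evidence. The gene-level fit is used here for genes outside the members and for the gene-level calls of members. It adjusts over fewer features, so calls on the same values can differ between the 2 fits.

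HMOX2, the constitutive heme oxygenase, read nearly the same in both groups. Its brighter probe set (11755424_a_at) read 1341 and 1371 after exosomes and 1393 and 1379 after PBS. Both exosome arrays were lower by a margin smaller than the SE, with a log2 difference of -0.03 (SE 0.048, 95% interval -0.14 to 0.08). The dimmer probe set (11729615_a_at) read 295 and 301 after exosomes and 306 and 286 after PBS, so the groups overlapped. Its log2 difference was 0.01 (95% interval -0.15 to 0.17). These intervals leave room for a rise of up to 0.17 and do not reach the 0.67 that is the lowest bound among the HMOX1 probe sets.

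The biliverdin reductases, which act on the product of heme oxygenase, differed in their readings. BLVRA (11738906_a_at), the main adult form, read 1889 and 1826 after exosomes and 1914 and 1878 after PBS, with overlapping groups and a log2 difference of -0.03 (SE 0.046, 95% interval -0.14 to 0.08). BLVRB (11756756_a_at), a flavin reductase that acts on the fetal type of biliverdin, read 3516 and 3406 after exosomes and 2933 and 2956 after PBS. Both exosome arrays were above both PBS arrays, and the log2 difference was 0.23 (SE 0.041, 95% interval 0.14 to 0.33), or 17.5% higher. The interval of BLVRB lies above that of BLVRA, although the difference between the genes was not tested. Its gene-level call, which is no independent evidence, was lost in the probe-set fit, without a trend in the variance model and in all 4 fits that left out an array, with log2 differences of 0.21 to 0.26.

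FTL, the ferritin light chain, was covered by 8 probe sets, of which 4 have the suffix _s_at and 4 _x_at, marking probes shared with other transcripts. Ferritin light chain pseudogenes are numerous, so these readings may include related sequences, and the 8 were designed on 7 records and overlap in what they measure. Both NCOA4 probe sets, the brightest of TFRC and of ALAS1, and 11753446_x_at of HMOX1 carry these suffixes too, so their readings may also include other transcripts. The brightest FTL probe set by mean (11757269_s_at) read 8546 and 8409 after exosomes and 7358 and 7409 after PBS. The dimmest (11755280_x_at) read 4171 and 3916 after exosomes and 3507 and 3514 after PBS. In all 8 both exosome arrays lay above both PBS arrays, and exosome replicate 1 was the brighter exosome array. The log2 differences were 0.20 to 0.23, 14.8% to 17.3% higher, with SEs of 0.034 to 0.051. The brightest probe set had a difference of 0.20 (SE 0.034, 95% interval 0.12 to 0.28). Its gene-level call, likewise no independent evidence, was lost in the probe-set fit, without a trend and in all 4 fits that left out an array, where its difference ranged from 0.19 to 0.21.

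**Figure D2:**
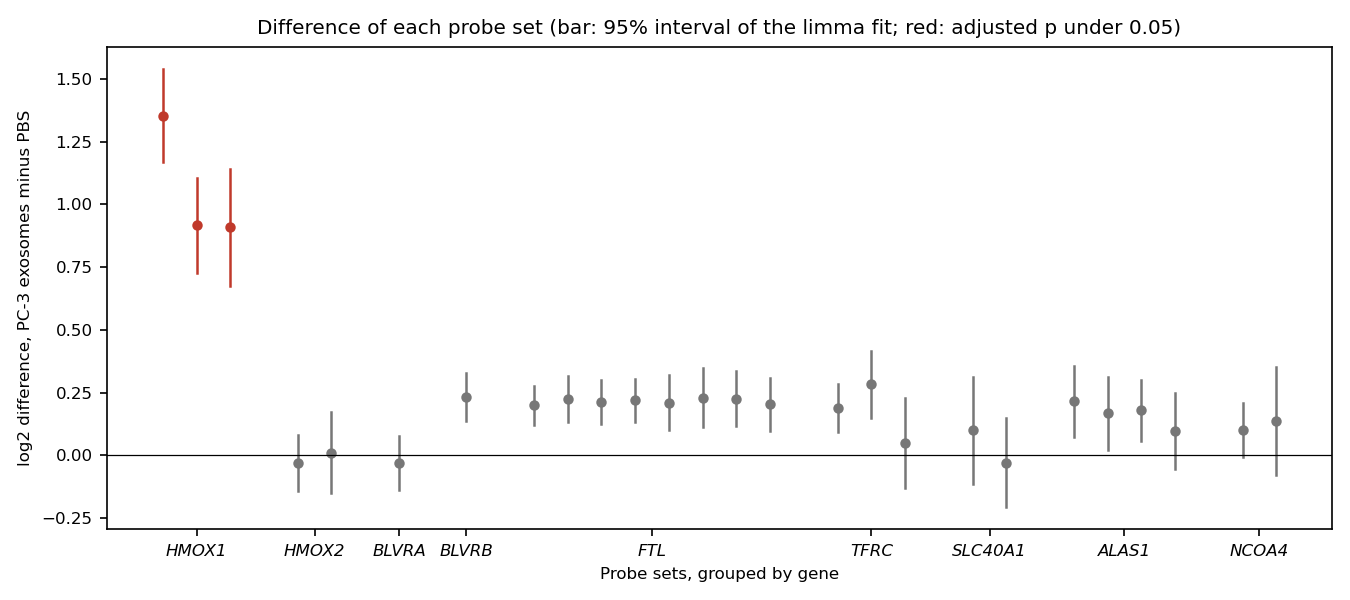
The log2 difference, PC-3 exosomes minus PBS, of each of the 26 probe sets (points) with its 95% interval from the limma fit over all single-gene probe sets (bars), grouped by gene, with the called probe sets in red. The 3 HMOX1 probe sets stand at 0.91 to 1.35, the 8 FTL probe sets and BLVRB at 0.20 to 0.23, and HMOX2 and BLVRA near 0.

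TFRC, the transferrin receptor, was read by 3 probe sets. The brightest (11756156_s_at) read 7834 and 8276 after exosomes and 6942 and 7178 after PBS, a log2 difference of 0.19 (SE 0.041, 95% interval 0.09 to 0.28). The second (11715477_at) read 3418 and 3724 after exosomes and 2823 and 3042 after PBS, a difference of 0.28 (95% interval 0.15 to 0.42), or 21.7% higher. Both exosome arrays were above both PBS arrays on each. The third (11715478_a_at) read 145 and 150.4 after exosomes and 142 and 143 after PBS, a difference of 0.05 (95% interval -0.13 to 0.23). TFRC was not called in either fit. FTL and the brighter TFRC probe sets both read higher after exosomes, TFRC by at most 21.7%. Iron acts on ferritin through translation, which these mRNA readings do not show, and a part of iron in these differences was not tested.

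SLC40A1, or ferroportin, the iron exporter, was dim. Its probe sets read 30.9, 31.1, 30.9 and 26.9 (11715788_a_at) and 21.8, 22.7, 23.3 and 22.2 (11715789_a_at) on exosome replicates 1 and 2 and PBS replicates 1 and 2. All 8 values lay below the geometric mean of the background controls, so no change can be read for this gene. The log2 differences were 0.10 (95% interval -0.11 to 0.31) and -0.03 (95% interval -0.21 to 0.15), and the groups overlapped on both.

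ALAS1, the rate-limiting enzyme of heme synthesis, is repressed by heme in many cells. Its brightest probe set (11719329_x_at) read 998 and 1072 after exosomes and 916 and 866 after PBS, a log2 difference of 0.22 (SE 0.061, 95% interval 0.07 to 0.36). The other 3 differed by 0.17 (11750973_a_at), 0.18 (11733041_a_at) and 0.10 (11719328_a_at), and the groups overlapped only on the last, which read 784 and 851 after exosomes and 739.6 and 787 after PBS. None of the 4 was called. ALAS1 was 6.99% to 16.1% higher across its probe sets.

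NCOA4, the ferritinophagy receptor, had small differences. Its brighter probe set (11734970_s_at) read 2879 and 2973 after exosomes and 2792 and 2663 after PBS, a log2 difference of 0.10 (SE 0.046, 95% interval -0.0047 to 0.21). The dimmer (11758053_s_at) read 106 and 120.2 after exosomes and 101 and 105 after PBS, a difference of 0.14 (95% interval -0.08 to 0.35). Both exosome arrays lay above both PBS arrays on each, and neither was called.

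The exosome arrays were ordered differently for different members. Replicate 2 was the brighter on all probe sets of HMOX1, HMOX2, TFRC, SLC40A1, ALAS1 and NCOA4, 16 of the 26. Replicate 1 was the brighter on all 8 of FTL and on BLVRA and BLVRB. Without exosome replicate 1 the log2 difference was thus larger for HMOX1, at 1.46, and smaller for BLVRB, at 0.21, and without replicate 2 it was 1.25 and 0.26.

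The small differences also depended on the scale. The 24 poly-A spike-in probe sets, control RNAs added to a sample, read 0.14 higher on the log2 scale after exosomes. Their mean log2 values on replicates 1 and 2 were 6.94 and 7.02 after exosomes and 6.90 and 6.77 after PBS. The PBS arrays thus also differed from each other. Centred on the spike-ins, all differences fall by 0.14, and the median of all genes is -0.15. HMOX1 stood at 1.21, 0.78 and 0.77 there, BLVRB at 0.09 and the brightest FTL probe set at 0.06, and BLVRB and FTL lost their gene-level calls. The SEs also rose there, from 0.041 to 0.089 for BLVRB and from 0.034 to 0.101 for that FTL probe set. TFRC fell to 0.05 on its brightest probe set, ALAS1 to 0.08 and NCOA4 to -0.04. In all, 17 of the 26 differences stayed above 0 and 9 were below it. Whether equal amounts of spike-in were added per amount of RNA is not given in the labels.

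**Figure D3:**
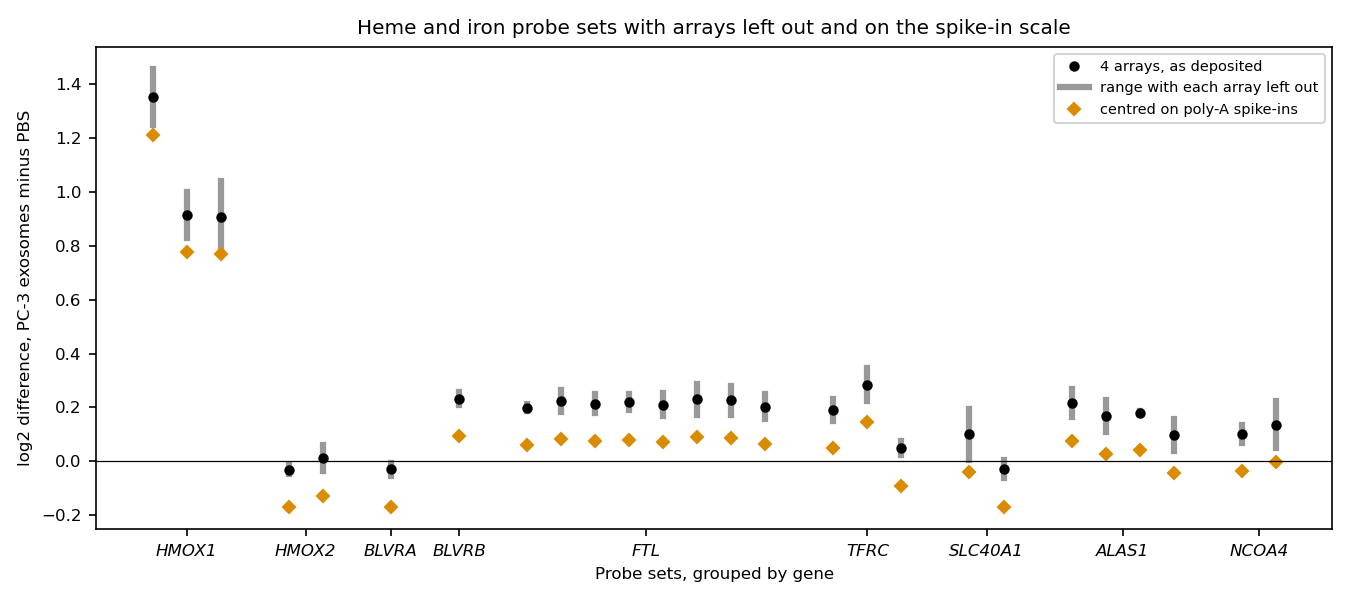
Log2 differences, PC-3 exosomes minus PBS, of the 26 probe sets from the 4 arrays as deposited (black), their range with each array left out in turn (grey bars) and after centring on the poly-A spike-ins (orange). HMOX1 stays between 0.77 and 1.46, while on the spike-in scale the FTL and BLVRB probe sets drop to 0.06 to 0.09.

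The other genes of heme and iron handling were called at about the share of all genes. Of 130 genes in the heme, iron and regulator lists, 119 were measured, 110 of them outside the 9. Of the 110, 1 was called higher (0.909%, against 0.700% of all genes) and 0 lower (against 0.188%) in the gene-level limma fit. At an unadjusted p of 0.05 there were 7 and 5, and the share of all genes past that p was not taken. The median log2 difference of the 110 was 0.003, against -0.01 over all genes. The gene called was LCN2, a lipocalin that binds iron carried by siderophores, which is also in the PC-3 marker list. It read 345 and 358 after exosomes and 178 and 179 after PBS, a log2 difference of 0.97 (SE 0.068, adjusted p = 0.00044 with limma). With an array left out the difference ranged from 0.95 to 1.00. The lists were written with earlier results of these data known, so the call of LCN2 is not independent evidence.

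The heme transport list gave 0 calls among 13 genes, and at an unadjusted p under 0.05 (limma) 1 gene was higher and 1 lower. SLC48A1, which moves heme out of lysosomes, read 893 and 861 after exosomes and 729.8 and 708 after PBS. Its log2 difference was 0.29 (SE 0.054, adjusted p = 0.0515 with limma), just outside the threshold. It was called after quantile normalization and after median centring (adjusted p = 0.0338 and 0.0337 with limma). It was not called with a pseudocount of 16, with a robust variance model, without a trend or with the replicate block. Nor was it called on the spike-in scale, where its difference was 0.15. With an array left out the difference ranged from 0.26 to 0.31. FLVCR1, a heme exporter, read 414 and 405 after exosomes and 450.4 and 457 after PBS, a difference of -0.15 (adjusted p = 0.401 with limma).

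In the synthesis list, 0 of 10 genes outside ALAS1 were called, with FECH, the ferrochelatase that inserts iron into heme, at 0.09 and SLC25A38, a mitochondrial glycine carrier, at 0.07. POR, the reductase that supplies heme oxygenase with electrons, read 1069 and 1076 after exosomes and 1153 and 1160.0 after PBS, a log2 difference of -0.11 that was not called. Of the 6 iron sensing genes 0 were called, with ACO1, the iron regulatory protein that doubles as an aconitase, at 0.13 and SKP1 at -0.06. Of 5 other transcripts with iron responsive elements 0 were called, with SLC11A2, the iron importer DMT1, at 0.16 and ALAS2 at -0.04. In ferritin storage and turnover 0 of 5 were called, with HERC2 at 0.04 and PCBP2, an iron chaperone, at -0.03. In iron export and systemic control 0 of 8 were called, where TMPRSS6 stood at -0.02. Among 18 iron-sulfur cluster genes 0 were called, with HSCB at 0.17 and BOLA3 at -0.12. Among 22 genes listed for hemoproteins or heme-bearing complexes 0 were called, with SDHD at -0.12 and UQCRB at -0.10. The values are log2 differences, exosomes minus PBS. At an unadjusted p under 0.05 (limma) these lists had, outside the 9 genes, 1 higher gene in iron sensing and 1 higher and 1 lower in export and systemic control. There were also 2 higher in iron-sulfur cluster assembly, 1 lower hemoprotein and 1 lower gene, POR, in heme degradation. Synthesis, storage and the transcripts with iron responsive elements had 0.

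Among the regulators of HMOX1 no mRNA passed the test. Of 10 measured, 0 were called higher or lower, with 0 and 1 past an unadjusted p of 0.05, in the limma fit. NFE2L2, the activator, read 2413 and 2401 after exosomes and 2176 and 2323 after PBS, a log2 difference of 0.10 (SE 0.047). CUL3, a subunit of the ligase that degrades NRF2, stood at -0.10. BACH1, the repressor, was dim at 78.9 and 71.5 after exosomes and 87.3 and 85.9 after PBS, a difference of -0.20 (adjusted p = 0.445 with limma). KEAP1, which holds NRF2 for degradation, differed by 0.003. NRF2 and BACH1 are controlled largely through protein stability and heme binding, which mRNA levels do not show.

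Iron and lipid peroxides meet in ferroptosis, and 2 of the 21 genes of that list were called higher and 0 lower, with 5 and 1 past an unadjusted p of 0.05 (limma). Over all genes 0.700% were called higher and 0.188% lower, and nothing is read from a count of 2 in a list chosen with earlier results known. SLC7A11, the cystine transporter that supplies glutathione synthesis, read 1786 and 1802 after exosomes and 1222 and 1208 after PBS, a log2 difference of 0.56 (SE 0.045, adjusted p = 0.0011 with limma). SAT1, the spermidine and spermine acetyltransferase, read 3725 and 3661 after exosomes and 2637 and 2775 after PBS, a difference of 0.45 (SE 0.043, adjusted p = 0.0021 with limma). With an array left out the differences were 0.55 to 0.57 for SLC7A11 and 0.41 to 0.49 for SAT1. Without a trend SAT1 was not called (adjusted p = 0.0815 with limma).

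**Figure D4:**
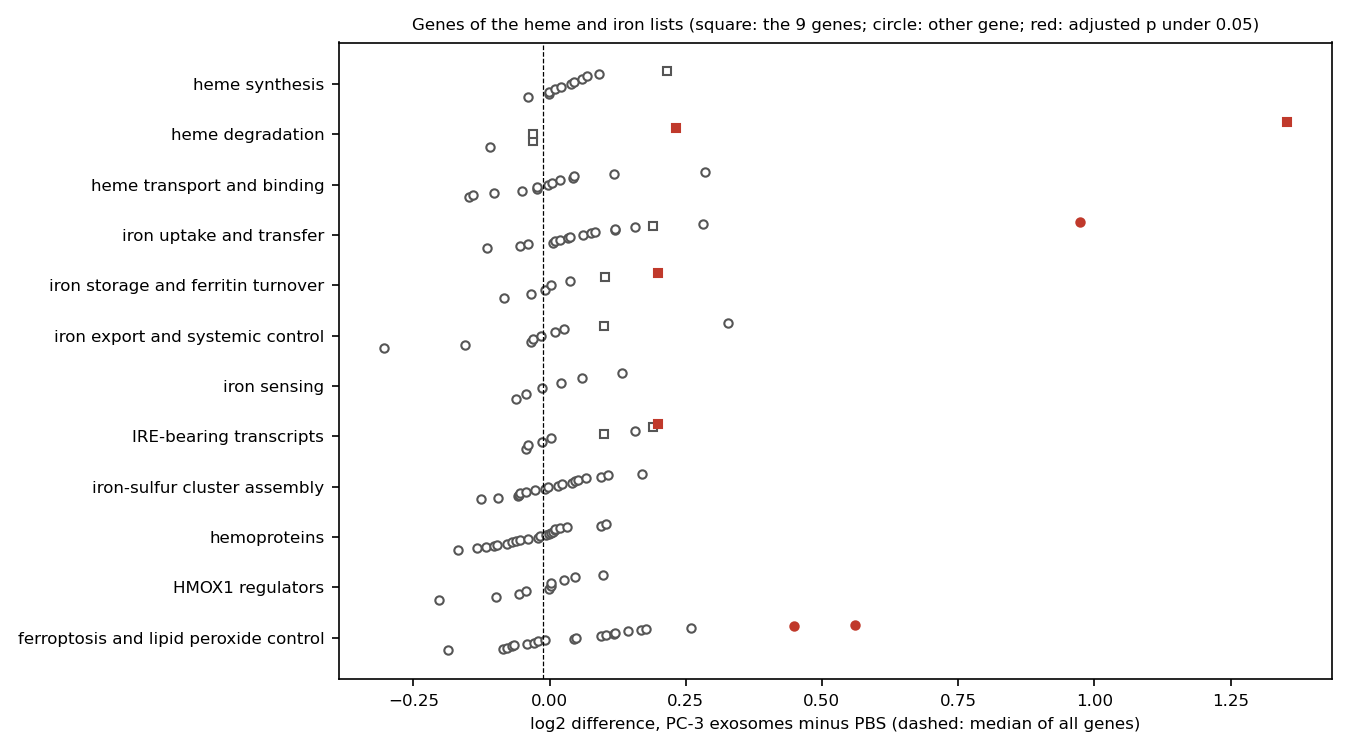
Log2 difference, PC-3 exosomes minus PBS, of each measured gene (brightest probe set) in 12 heme, iron, regulator and ferroptosis lists, with squares for the 9 genes, circles for other genes, red for adjusted p under 0.05 and a dashed line at the median of all genes. Outside the squares only LCN2, SAT1 and SLC7A11 are red, and the other circles lie between -0.30 and 0.33.

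The genes whose pattern over the 4 arrays was nearest to that of HMOX1 were found by the Euclidean distance between log2 values after subtracting each gene's PBS mean, among 8981 genes. They were DHRS3, a retinaldehyde reductase (distance 0.26), S100P, a calcium-binding protein (0.30), MMP7, the protease matrilysin (0.48), LCN2 (0.55) and BAMBI, a decoy receptor of the TGF-beta family (0.60). DHRS3 read 443 and 418 after exosomes and 174 and 186 after PBS, a 2.38-fold higher level. S100P was 2.27-fold, MMP7 2.02-fold, LCN2 1.96-fold and BAMBI 1.94-fold higher. Only MMP7 and LCN2 shared with HMOX1 the brighter reading on exosome replicate 2. With 4 arrays in 2 groups, this distance mostly measures the size of the difference.

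**Figure D5:**
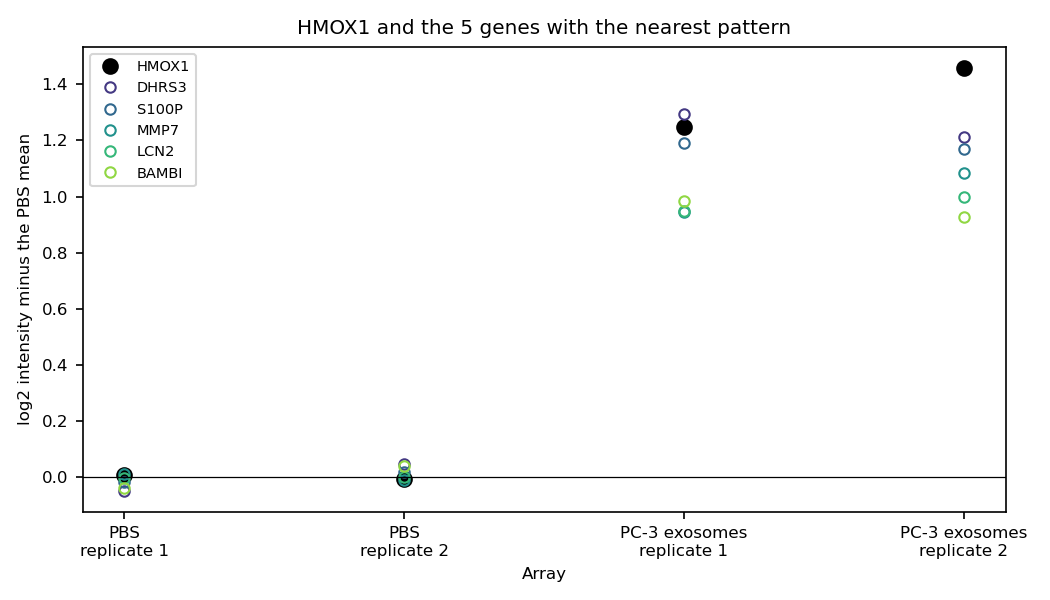
Log2 intensity minus the gene's PBS mean on each of the 4 arrays, for HMOX1 (filled black) and the 5 genes nearest to it (open circles). The PBS values lie near 0, and on the exosome arrays HMOX1 stands at 1.25 and 1.46 and the 5 others between 0.93 and 1.29.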

How the data were processed

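The deposited table held normalized intensities of 49395 probe sets on 4 arrays, made by the authors on a linear scale. Per the submitters' processing notes, the tools named are MAS5 and RMA, with no role stated for either, and the array's genome build is not given in the sources used here. Intensities were used as deposited, after adding 1 and taking log2, and folds are taken back from that scale. Probe sets of 1 gene (44988, by the platform annotation) were tested with limma 3.58.1 (lmFit, eBayes with a trend) in R 4.3.3, exosome minus PBS, two-sided, and again with the probe set of highest mean standing for each of 18132 genes. P-values were adjusted by the Benjamini-Hochberg method, with a threshold of 0.05. Counts past an unadjusted p are given without the share of all features past it, and nothing is read from them. Residual degrees of freedom were 2 and prior ones 6.99 in the gene-level fit, and precision is limited by there being 4 arrays. The labels do not say that the replicates were separate cultures, so the p-values may measure technical spread alone. Standard errors and intervals of members are from the probe-set fit and those of other genes from the gene-level fit. The fits were tested on simulated data.

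The members and gene lists were chosen with earlier results of these data known. Named were all members, the 5 genes nearest to HMOX1, and from each list up to 4 called genes with the largest difference. Where a list had none, the 2 with the largest difference were named, if the brighter group's mean reached an intensity of 201.7. BACH1, KEAP1 and the levels of LCN2 as a marker were named for their role. Alternatives changed normalization, pseudocount, low-value filter, variance model, replicate block, probe sets per gene and array left out. Promoter windows were matched by symbol. Figures were drawn with matplotlib 3.10.9.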

Additional observations from a re-analysis of the deposited data

How the results depend on the processing

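The direction of every member gene's brightest probe set was kept except that SLC40A1 and NCOA4 turned to -0.04 each on the spike-in scale, where neither had been called. HMOX1 was 1.21 there and 1.06 as the mean of its probe sets, and 1.25 to 1.46 with an array left out. Of 72 values for the other members under these alternatives, 61 moved by less than 1 SD between replicates and 11 moved by more.

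Counts moved more than values. Genes called higher (127) became 60 on the spike-in scale, 213 at or above the median level, 18 without a trend, 2 with the replicate block and 28 to 40 with an array left out. Genes called lower (34) became 68 after quantile normalization, 326 on the spike-in scale, 84 at or above the median, 57 at or above the 30th percentile, 3 without a trend, 0 with the replicate block and 4 to 7 with an array left out. Probe sets called higher (107) became 173 after quantile normalization, 185 at or above the median, 10 without a trend, 0 with the block and 0 to 4 with an array left out. Probe sets called lower (9) became 28, 748, 34 and 15 after quantile normalization, spike-in centring, the median filter and the 30th percentile filter, and 0 without a trend, with the block and with any array left out. Member probe sets called higher (3) became 5 after quantile normalization, 7 at or above the median, 1 without a trend, 0 with the block and 0 to 1 with an array left out. List genes outside the members called higher (1) became 2 after quantile normalization, median centring and both filters, and 0 with the block. The cause was not tested. By design, filters leave fewer features to adjust over, and the replicate block leaves fewer residual degrees of freedom. A left-out array leaves fewer samples, the lone array of its group being assumed to vary like those of the other.

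The replicate numbers are not explained in the labels, and deviations of arrays with the same number correlated at -0.04 over 18132 genes, so the numbers were not taken as pairs. HMOX1, BLVRB and FTL were not called with the replicate block in the gene-level fit, nor were LCN2, SLC7A11 and SAT1 (adjusted p = 0.0727, 0.0805 and 0.0917 with limma). With 2 arrays per group, differences near 0.2 lie close to what the fits can separate from spread, and probe sets near the background controls, such as those of SLC40A1, show no usable change.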
